A study of Mus musculus with 12 samples.

Results

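Photoreceptor (PR) ribbon synapse genes were examined in the retina of mice that lost Otx2 from PRs. The 10 genes are Ctbp2, Bsn, Pclo, Cacna1f, Cacna2d4, Cabp4, Slc17a7, Stx3, Egflam and Unc119. They were chosen by name for the place of their proteins in the PR terminal. All 10 were among the 54146 genes counted and among the 18628 genes with enough counts to be tested. RNA from the whole retina, which in this study included the retinal pigment epithelium (RPE), was sequenced as 1 library for each of 12 mice, 3 per age. The PR-specific Otx2 cKO mice carried a tamoxifen-dependent Cre under the Crx promoter, which is active in PRs, and 2 floxed Otx2 alleles (Crx-CreERT2;Otx2 flox/flox) on a 129/SV background. They received tamoxifen once at P30 and were taken 2, 4 or 8 d later, at P32 (mice 4 to 6), P34 (mice 7 to 9) and P38 (mice 10 to 12). The labels call the P30 mice (1 to 3) controls, and the study's text places them at 0 d after tamoxifen. Age, tamoxifen and deletion therefore changed together between P30 and the other ages and cannot be told apart. The comparisons asked how the retinal transcriptome changed in the first days after PRs lost Otx2.

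A PR signals through a ribbon, a plate-like scaffold that holds glutamate-filled vesicles next to calcium channels in the rod spherule or cone pedicle. RIBEYE, a product of Ctbp2, builds the ribbon, Bassoon and Piccolo link it to the active zone, and calcium entering through Cav1.4 channels drives release while the PR is depolarized in the dark. OTX2 and CRX are related homeodomain factors that bind DNA with the core TAATCC and are known for turning on many PR genes.

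In the libraries, counts on genes came to 29701483 to 60145034 per mouse, and each of the 10 genes had between 2288 and 100862 counts in every mouse. Levels are given in CPM, a gene's counts scaled to the library's total with TMM factors. Rod, bipolar, amacrine and Muller glia markers on the lists used here were at more than 0 counts in every mouse. Otx2 itself measured 293, 328 and 315 CPM in the P30 mice and 307 to 377 CPM in the 9 cKO mice (edgeR's quasi-likelihood test, Benjamini-Hochberg adjusted p = 0.703, 0.684 and 0.847 at P32, P34 and P38). The floxed part is an exon, so this sum over all exons does not check the deletion. P32 mouse 4 stood apart: its levels fell with the length of a gene's exons by 0.29 on the log2 scale for each doubling, against slopes of -0.0623 to 0.104 in the other 11 mice. Summed over 8 lens markers, RNA ranged from 280 to 45746 CPM, with 45746 CPM in P32 mouse 4, 33395 CPM in P32 mouse 5, 39436 CPM in P30 mouse 3 and 280 to 764 CPM at P34. Reads from Xist and Y-linked genes put males only among the cKO mice (4, 7, 8, 10 and 11). The part of these differences in the results below was not tested, except where values without a mouse or with a covariate are given.

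Against P30, 0 of the 10 genes passed the test at any age. To be called, a gene needed a log2 fold change beyond 0.5 in either direction and, after Benjamini-Hochberg adjustment of edgeR's quasi-likelihood p-values, an adjusted p within 0.05. That rule called 0% of all genes in either direction at P32, 0.66% as lower and 0% as higher at P34, and 0% in either direction at P38. DESeq2 also called 0 of the 10 genes at each age. The share of all genes that it called against P30 is not given here, and the study's own DESeq2 tests listed changed genes at each age. At an unadjusted p within 0.05 there were 0, 0 and 1 of the 10 genes at P32, P34 and P38, beside 5.64%, 10.5% and 5.64% of all genes. Because the 3 comparisons use the same P30 mice, their values are not independent of each other.

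The estimates were small. At P32 the log2 fold changes ran from -0.30 for Pclo to 0.27 for Unc119, with a median of -0.19, and 7 of 10 were below 0, beside 51.5% of all genes. At P34 they ran from -0.12 for Cacna1f to 0.33 for Egflam, with a median of 0.19, and 9 of 10 were above 0 (50.2% of all genes were below it). At P38 they ran from 0.06 for Cacna1f to 0.38 for Slc17a7, with a median of 0.22, and all 10 were above 0 (51.8% of all genes were below it). The median of all genes tested was within 0.01 of 0 at each age. The 95% intervals give what these mice could still hold: a fold between 0.587 and 1.65 at P32, between 0.716 and 1.63 at P34 and between 0.777 and 1.69 at P38 over the 10 genes. At P34 and P38 the intervals of all 10 genes lay above a fall of 0.5 on the log2 scale, while at P32 this was so for 4 genes. The intervals lay below a rise of 0.5 for 9, 4 and 2 genes at P32, P34 and P38. On simulated counts for P34 against P30, the same procedure recovered 64 of 100 genes changed by 1 and 93 of 100 changed by 2 on the log2 scale. It made 7 false calls among 18343 genes. The changed genes were drawn from all genes with a mean above 1 CPM, so these rates are not those of the 10 genes. Changes of these sizes, and smaller ones, could pass uncalled.

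**Figure D1:**
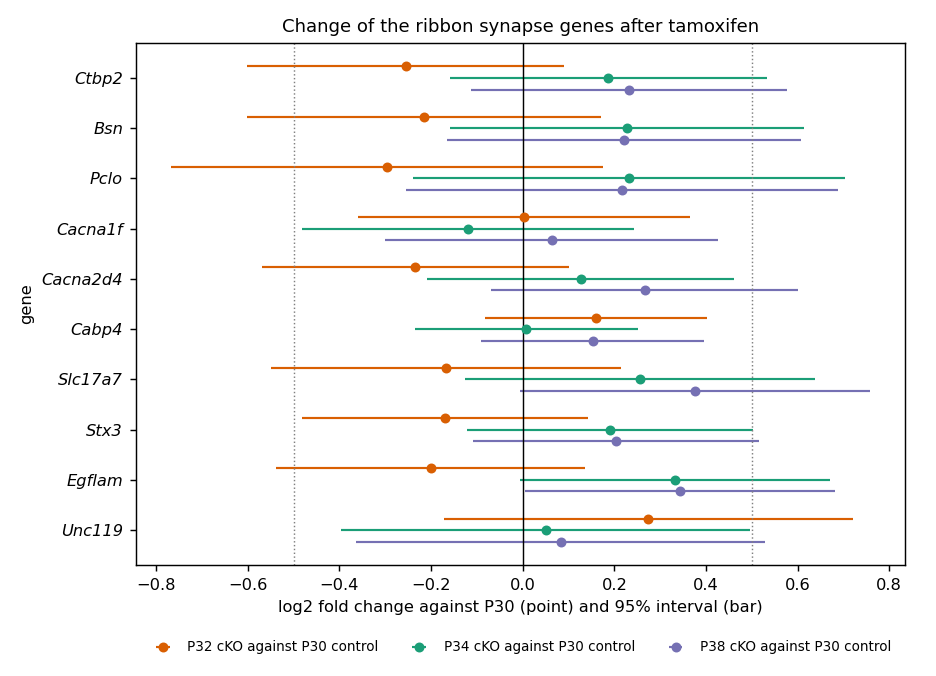
Log2 fold change of each ribbon synapse gene at P32, P34 and P38 against P30 (points) with its 95% interval (bars) from edgeR's fit over 12 mice, 3 per age, and dotted lines at 0.5 in either direction. All intervals but that of Egflam at P38 reach across 0, and at P32 most points lie left of those at P34 and P38.

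The scaffold of the ribbon comes first. Ctbp2 (ENSMUSG00000030970) lies on the minus strand at chr7:132987563-133124354 of GRCm38. Its transcripts include Ctbp2-214, whose 988 codons give the long ribbon protein RIBEYE, and a shorter one whose 445 codons give the nuclear corepressor CtBP2. The deposited counts add them up, so a shift between them would not be seen. Its exons share 314 bases, or 5.05% of their length, with Fgfr2 on the same strand, which had 65 to 1008 counts per mouse. Ctbp2 measured 172, 203 and 208 CPM in the P30 mice. The P32 mice had 115, 179 and 194 CPM, the P34 mice 220.2, 225 and 218 CPM and the P38 mice 229, 234 and 222 CPM. All 6 mice at P34 and P38 were above all 3 P30 mice, and P32 mouse 4 was far below every other mouse. The log2 fold changes of -0.26 ± 0.16, 0.19 ± 0.16 and 0.23 ± 0.16 (SE, 3 mice against 3) did not pass the test (edgeR's quasi-likelihood test, adjusted p = 0.698, 0.72 and 0.847). Without P30 mouse 1, the lowest of the P30 mice, the estimates at P34 and P38 were 0.11 and 0.15.

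Bsn and Pclo encode Bassoon and Piccolo, giant proteins that anchor the ribbon and organize the active zone. Bsn (ENSMUSG00000032589, chr9:108096022-108190384, minus strand) measured 95.5, 105 and 104 CPM at P30 and, at P32, 68.6, 93.3 and 100.2 CPM. The P34 mice had 105, 121 and 130.4 CPM and the P38 mice 92.2, 149.9 and 113 CPM. At P38, mouse 10 was below and mouse 11 above all P30 mice, so the SD of 29.3 CPM was larger than the difference between the means of 118 and 102 CPM. Pclo (ENSMUSG00000061601, chr5:14514918-14863459, plus strand) measured 181, 229 and 204 CPM at P30 and 115, 174 and 211 CPM at P32. At P34 it stood at 198, 267 and 256 CPM, and at P38 the mice had 186, 288 and 239 CPM. Its groups overlapped P30 at every age. Its exons share 496 bases with the antisense gene Gm26954, which had 1763 to 3425 counts per mouse, and the counts do not separate Piccolo from its short PR form piccolino.

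The calcium channel genes came with small estimates as well. Cacna1f encodes the pore of Cav1.4, the channel of PR terminals (ENSMUSG00000031142, chrX:7607083-7635196, plus strand). It measured 324, 400 and 357 CPM at P30 and 306, 393 and 383 CPM at P32. The P34 mice had 250.4, 396 and 349 CPM and the P38 mice 340, 390 and 398 CPM. P34 mouse 7 was the lowest of the 12 mice, and the groups overlapped throughout. The log2 fold changes were 0.00 ± 0.17, -0.12 ± 0.17 and 0.06 ± 0.17 (SE, 3 mice against 3). Cacna2d4, for the auxiliary subunit that brings the channel to the terminal (ENSMUSG00000041460, chr6:119236526-119352407, plus strand), measured 462, 571 and 481 CPM at P30 and 324, 469 and 493 CPM at P32. At P34 it stood at 511, 597 and 544 CPM, and in the P38 mice at 589, 623 and 609 CPM. All 3 P38 mice were above the P30 mice, with a log2 fold change of 0.27 ± 0.15 (adjusted p = 0.847, edgeR's quasi-likelihood test). Cabp4, a calcium-binding protein that shifts Cav1.4 opening to the voltages of a PR in the dark (ENSMUSG00000024842, chr19:4135423-4144033, minus strand), measured 144, 146 and 121 CPM at P30 and 165.5, 148 and 145 CPM at P32. The P34 mice had 133, 141 and 139 CPM and the P38 mice 170, 132 and 155 CPM. The interval of its P34 fold change, from 0.849 to 1.19, was the narrowest of the 10 at P34. A stretch of 131 bases of its exons is shared with Gpr152 on the other strand.

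Vesicle filling and fusion are served by Slc17a7 and Stx3. Slc17a7 encodes VGLUT1, which loads glutamate into the vesicles (ENSMUSG00000070570, chr7:45163949-45176142, plus strand). It measured 1249, 1383 and 1629 CPM at P30 and 1025, 1307 and 1461 CPM at P32. The P34 mice had 1871, 1511 and 1707 CPM and the P38 mice 2152, 1553 and 1824 CPM. The P38 mean of 1843 ± 300 CPM (SD, n = 3) stood beside 1420 ± 193 CPM at P30, but the groups overlapped through P30 mouse 3 and P38 mouse 11. The log2 fold change of 0.38 ± 0.18 at P38 had an interval of -0.01 to 0.76 (adjusted p = 0.847, edgeR's quasi-likelihood test). Stx3 encodes syntaxin-3, the fusion syntaxin of ribbon terminals (ENSMUSG00000041488, chr19:11775118-11819403, minus strand). It measured 811, 791 and 802 CPM at P30, an SD of 9.73 CPM. The P32 mice had 654, 690.1 and 795 CPM, the P34 mice 989, 913 and 843 CPM and the P38 mice 1127, 802 and 841 CPM. All 3 P34 mice were above the P30 mice, while P38 mouse 11 fell inside the P30 range.

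Across the cleft, Egflam had the largest estimate at P34. It encodes pikachurin, a matrix protein that PRs secrete and that ties the terminal to the dendrite tips of bipolar cells (ENSMUSG00000042961, chr15:7206120-7398395, minus strand). It measured 272, 292 and 308 CPM at P30 and 209, 264 and 286 CPM at P32. Levels in the P34 mice were 398, 339 and 361 CPM and the P38 mice 453, 310.4 and 342 CPM. All 6 mice at P34 and P38 lay above all 3 P30 mice, the closest pair being P38 mouse 11 and P30 mouse 3. The log2 fold changes were -0.20 ± 0.15, 0.33 ± 0.15 and 0.34 ± 0.15 (SE, 3 mice against 3), and none passed the test (adjusted p = 0.701, 0.488 and 0.847, edgeR's quasi-likelihood test). With an unadjusted p of 0.0468 at P38, it was the gene counted above. Single P38 mice moved these estimates: without mouse 10, the P38 log2 fold change was 0.18 for Egflam in place of 0.34 and 0.045 for Stx3 in place of 0.20. Without mouse 11, that of Bsn was 0.014 in place of 0.22 and that of Pclo 0.056 in place of 0.22.

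Unc119, named for the worm gene, encodes a lipid-binding carrier of PR inner segments and terminals (ENSMUSG00000002058, chr11:78343482-78349164, plus strand). It measured 1590, 1467 and 1435 CPM at P30 and 2384, 1564 and 1485 CPM at P32. Levels in the P34 mice were 1783, 1532 and 1336 CPM and the P38 mice 1949, 1309 and 1499 CPM. P32 mouse 4 was the highest of the 12 mice, and in that mouse the 7 genes below P30 at P32 were at their lowest. Without this mouse, the P32 log2 fold change of Unc119 was 0.03 in place of 0.27.

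**Figure D2:**
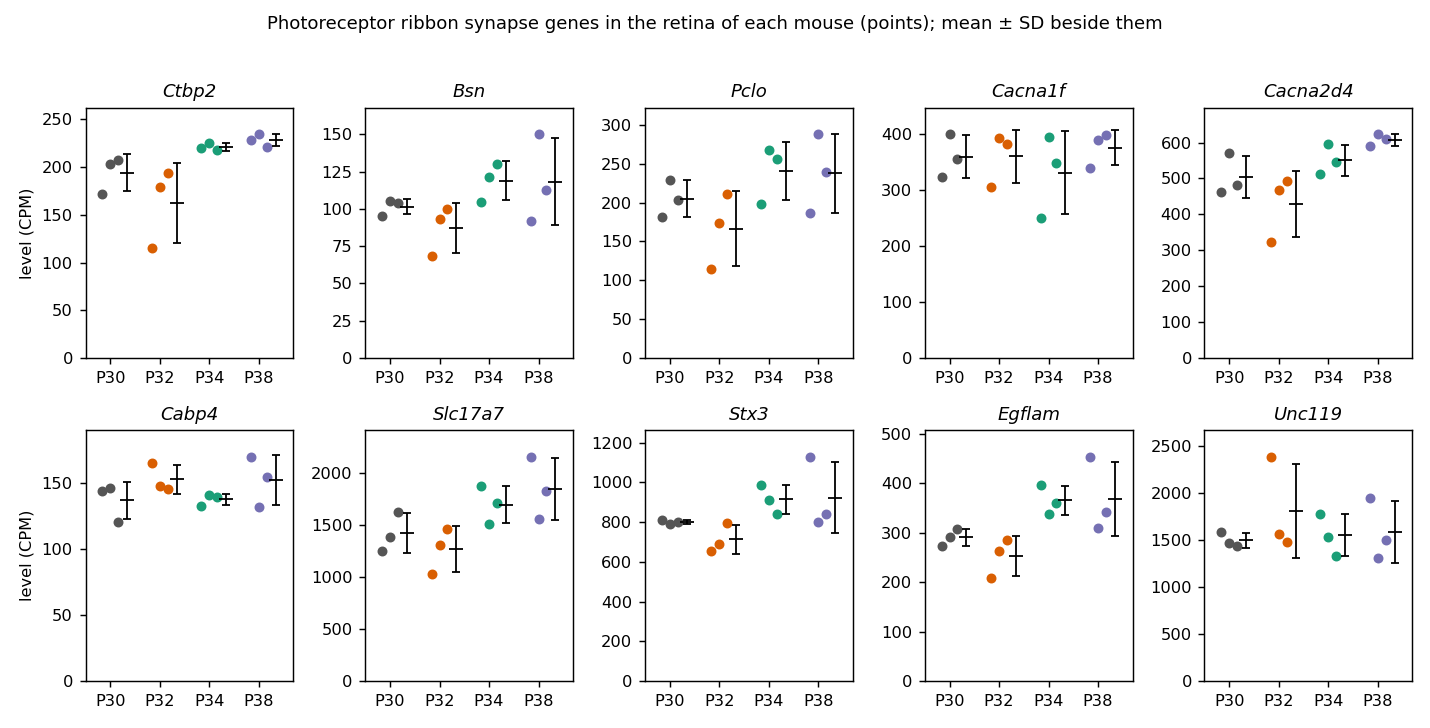
Level in CPM of each ribbon synapse gene in the retina of each mouse (points, 3 per age, in the order of the mouse numbers), with the mean and SD of each age beside them. Most genes are lowest in the first P32 mouse, mouse 4, while Unc119 is highest there, and Egflam and Ctbp2 at P34 and P38 sit above the P30 points.

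Counting groups that did not overlap, 3 of the 10 genes (Ctbp2, Stx3 and Egflam) had all P34 mice above all P30 mice, beside 10.4% of all genes. At P38 there were 3 (Ctbp2, Cacna2d4 and Egflam), beside 8.23% of all genes. At P32 no gene separated from P30 in either direction, beside 9.65% of all genes. Over 11 rod markers, none among the 10 genes, the median log2 fold change was -0.06, 0.18 and 0.27 at P32, P34 and P38, and 0 of 11 passed the test at any age. The summed level of these rod markers was 73081 to 79662 CPM at P30, 66473 to 72275 CPM at P32, 82388 to 108811 CPM at P34 and 79926 to 120298 CPM at P38. The marker lists of other cell types had medians of either sign. At P34 and P38, the 7 ganglion cell markers had medians of 0.50 and 0.35, and the 4 horizontal cell markers 0.41 and 0.29, with 0 of either list passing the test. The medians were 0.09 and 0.06 for 8 cone markers and 0.22 and -0.04 for 7 amacrine markers. They were -0.03 and -0.0099 for 9 bipolar markers, 0.05 and -0.14 for 6 Muller glia markers, -0.09 and -0.05 for 5 microglia markers and -0.22 and -0.11 for 8 RPE markers, of which 1 passed the test as lower at P34. The RPE markers were split: they ran from -4.42 to 0.33 at P34 and from -3.26 to 0.39 at P38, with the pigment genes Mlana, Pmel and Tyr lowest at both ages. Smooth muscle markers, of which 3 of 4 tested passed as lower at P34, had medians of -4.04 and -3.02 and summed to 19.4 to 171 CPM at P30 and 4.63 to 7.14 CPM at P34. Lens markers had medians of -4.97 and -1.44, with 0 of 8 passing. The bipolar markers summed to 1365 to 1730 CPM over all mice, with overlapping ranges at each age. In whole retina, a change in the share of PRs and a change in RNA per PR cannot be told apart. The part of the rod share in the levels of the 10 genes was not tested.

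Against the P32 mice, both later cKO ages gave higher estimates than against P30 for 7 of the 10 genes and lower ones for Cacna1f, Cabp4 and Unc119, and none passed. From P32 to P34, the log2 fold changes ran from -0.22 for Unc119 to 0.53 for Egflam and Pclo, with a median of 0.39. At this step edgeR called 0 of 10 genes, beside 0.242% of all genes as lower and 0% as higher. At an unadjusted p of at most 0.05 there were 7 of 10 as higher (Ctbp2, Bsn, Pclo, Cacna2d4, Slc17a7, Stx3 and Egflam), beside 13.5% of all genes. All P34 mice were above all P32 mice for 6 of these genes, all but Pclo, beside 14.8% of all genes, and below all P32 mice for Cabp4, beside 13.6% of all genes. At the same unadjusted p, 13 of 27 presynaptic partners (below), 6 of 7 ganglion cell markers and 3 of 4 horizontal cell markers were also higher. The counts were 4 of 11 for rod, 2 of 7 for amacrine, 1 of 8 for cone and 0 of 9 for bipolar markers. From P32 to P38 edgeR again called 0 of the 10 ribbon synapse genes, beside 0% of all genes. The same 7 of these 10 had an unadjusted p of at most 0.05, beside 12.3% of all genes as higher. The largest estimates were 0.54 ± 0.16 for Egflam and 0.54 ± 0.18 for Slc17a7 (adjusted p = 0.116 and 0.1295, edgeR's quasi-likelihood test). From P34 to P38 the values ran from -0.02 to 0.18 and 0 of 10 passed, beside 0.199% of all genes as higher, with 0 of 10 at an unadjusted p within 0.05, beside 5.08%.

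Those differences from P32 depended on the mouse and on the tool. DESeq2 put Egflam past the threshold from P32 to P34 (log2 fold change 0.53, adjusted p = 0.0207) and Egflam and Slc17a7 from P32 to P38 (adjusted p = 0.024 and 0.0315). In the same DESeq2 fits, 3.47% and 3.05% of all genes given an adjusted p were called as higher. Without P32 mouse 6, edgeR called 3 genes from P32 to P34 (Ctbp2, Pclo and Egflam) and 4 from P32 to P38 (Ctbp2, Cacna2d4, Slc17a7 and Egflam), beside 7.43% and 6.52% of all genes as higher in those fits. Without P32 mouse 4 it called 0, and the log2 fold changes of Ctbp2, Pclo and Cacna2d4 from P32 to P34 were 0.25, 0.32 and 0.20 in place of 0.44, 0.53 and 0.36. From P32 to P38, those of Ctbp2 and Pclo without this mouse were 0.29 and 0.30 in place of 0.49 and 0.51. Without P38 mouse 11, that of Bsn was 0.23 in place of 0.44, and without P38 mouse 10, that of Stx3 was 0.21 in place of 0.37. Over any difference among the 4 ages, edgeR called 0 of 10 genes, beside 0.344% of all genes, and 4 had an unadjusted p of at most 0.05 (Ctbp2, Cacna2d4, Slc17a7 and Egflam), beside 17.2% of all genes. DESeq2 called 1 gene over any age (Egflam), beside 7.05% of all genes given an adjusted p. With the 9 cKO mice as 1 group, the log2 fold changes against P30 ran from -0.02 to 0.18, and 0 of 10 passed, beside 0.0537% of all genes as lower and 0% as higher. At an unadjusted p within 0.05 there were also 0 of 10, beside 2.63% of all genes.

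The retina of P32 mouse 4 differed from those of P32 mice 5 and 6 by gene length, and 8 of the 10 genes have 5392 or more bases of merged exons. Those exons run from 2448 bases for Unc119 and 3518 bases for Cabp4 to 15938 bases for Bsn and 22457 bases for Pclo. On the log2 CPM scale, mouse 4 minus the mean of mice 5 and 6 was 0.65 for Unc119 and 0.17 for Cabp4. It was -0.69 for Ctbp2, -0.73 for Pclo, -0.57 for Cacna2d4 and -0.49 for Bsn, and between -0.43 and -0.18 for the other 4 genes. Over 14808 genes of at least 1 CPM, the median difference went from 0.61 in the decile of the shortest exons to -0.46 in that of the longest. With each library's length slope as a covariate, the P32 log2 fold changes of Bsn, Pclo and Unc119 were 0.0088, 0.0058 and -0.03, and those of Egflam and Stx3 were -0.13 and -0.16. Without mouse 4, the P32 log2 fold changes of the 7 genes with negative estimates ran from -0.11 for Stx3 to -0.04 for Slc17a7.

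**Figure D3:**
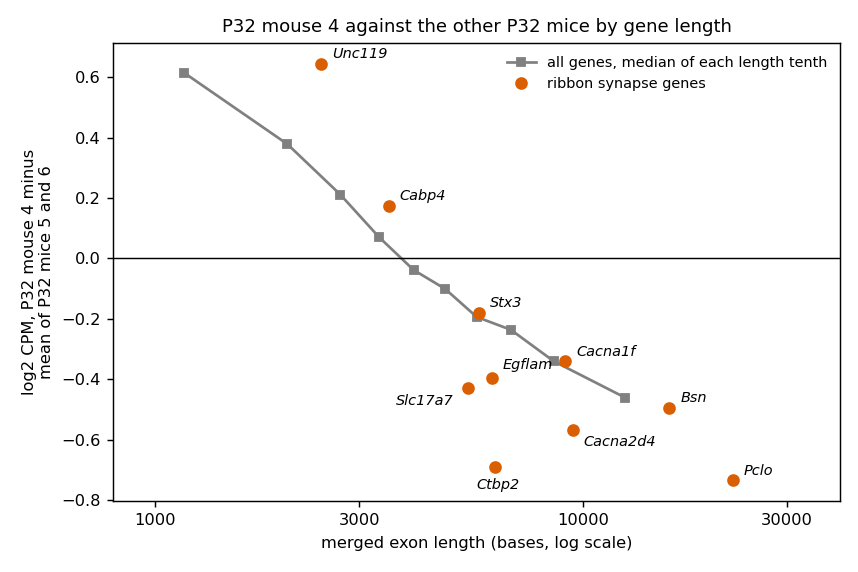
Difference in log2 CPM between P32 mouse 4 and the mean of P32 mice 5 and 6 against the merged exon length in bases (log axis), for the 10 ribbon synapse genes (orange) and for the median of each length decile of 14808 genes (grey). The short Unc119 lies above 0 and the long Pclo below it, and the grey line falls from 0.61 to -0.46.

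Across the 12 mice, some of the genes went together in their levels more closely than others, here as Pearson's r of log2 CPM, a description over libraries that share their scaling. Bsn and Pclo had r = 0.96, and 0.93 without P32 mouse 4. Slc17a7, Stx3 and Egflam also went together: r was 0.96 for Slc17a7 with Egflam, 0.94 for Stx3 with Egflam and 0.86 for Slc17a7 with Stx3, and 0.94, 0.93 and 0.81 without that mouse. Bsn and Pclo had r = 0.473 and 0.53 with Egflam and 0.472 and 0.525 with Slc17a7, and without mouse 4 they had 0.08 and 0.10 with either. Ctbp2 went with both: r was 0.81 with Bsn, 0.87 with Pclo, 0.84 with Slc17a7 and 0.83 with Egflam, and 0.61, 0.66, 0.765 and 0.745 without mouse 4. Slc17a7, Stx3 and Egflam were highest in P38 mouse 10 and next highest in P34 mouse 7. These were also the mice with the highest rod marker sums, 120298 and 108811 CPM, and the lowest shares of reads outside genes, 7.53% and 6.53% against 8.67 to 13.7% in the others. Bsn and Pclo were instead highest in P38 mouse 11, which had the highest length slope, 0.104. The part of these measures in the correlations was not tested. Ctbp2 and Cacna2d4 went with each other at r = 0.94 (0.83 without mouse 4). Unc119 ran against Bsn and Pclo at r = -0.85 and -0.86 (-0.70 and -0.66 without mouse 4).

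**Figure D4:**
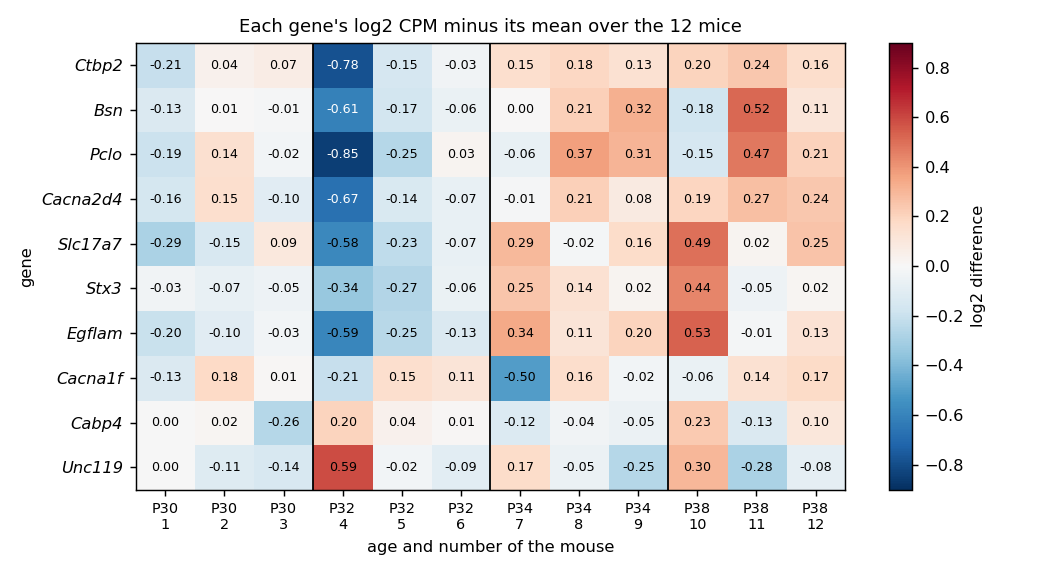
Log2 CPM of each ribbon synapse gene minus its mean over the 12 mice, with mice in columns by age and number (red higher, blue lower, values printed). The P32 mouse 4 column is blue for 8 genes and red for Cabp4 and Unc119, and Slc17a7, Stx3 and Egflam are reddest in P38 mouse 10.

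Outside the 10 genes, those whose log2 CPM most resembled the mean of the 10 over the 12 mice were Dscaml1 (r = 0.984), Thada (r = 0.983), Cacnb2, Pik3r4 and Tcf20 (r = 0.976 each), of 10352 genes with a mean of at least 10 CPM. Of these genes, 7.14% had an r over 0.9, and 0.995% did without P32 mouse 4, when Usp6nl, Dscaml1, Pik3r4, Gucy2e and Thada led.

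At the start sites, RefSeq promoter windows (250 bases before a start, GRCm38.p6) were at hand for 12 starts of 8 of the genes. The letters TAATCC, or GGATTA on the other strand, the core that OTX2 and CRX recognize, occurred in 2 of the 12 windows, beside 6.25% of 32851 starts of all genes. They are shown because they are the only matches among the genes, with the match in capitals, read along the gene's strand:
Ctbp2, chr7:133015351-133015380, minus strand: taaggtttcagaGGATTAataatttaggtc
Unc119, chr11:78345454-78345483, plus strand: tttgctgtttctGGATTAccaggccttgaa
The Ctbp2 match begins 121 bases before a RefSeq start next to that of Ctbp2-214, the RIBEYE-length transcript. The Unc119 match begins 118 bases before a start that lies inside the gene. A match is no more than a run of letters, and neither gene passed the test at any age.

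The windows of Slc17a7 and Egflam, the pair whose levels went together most closely, held neither form of these letters:
Slc17a7, chr7:45163671-45163920, plus strand: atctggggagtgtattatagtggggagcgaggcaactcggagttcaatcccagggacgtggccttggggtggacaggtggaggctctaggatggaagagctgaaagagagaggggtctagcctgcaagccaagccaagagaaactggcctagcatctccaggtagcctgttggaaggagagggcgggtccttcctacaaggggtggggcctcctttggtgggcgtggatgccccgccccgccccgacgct
Egflam, chr15:7398396-7398645, minus strand: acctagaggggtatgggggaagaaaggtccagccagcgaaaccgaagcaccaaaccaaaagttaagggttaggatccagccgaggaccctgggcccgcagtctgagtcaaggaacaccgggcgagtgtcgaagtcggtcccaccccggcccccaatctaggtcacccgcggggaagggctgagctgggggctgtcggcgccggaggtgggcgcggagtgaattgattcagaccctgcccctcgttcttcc

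The genes differed widely in their level per length. In the P30 mice, in CPM per kb of merged exon, the order was Unc119 (612 ± 33.5, SD, n = 3), Slc17a7 (263 ± 35.8), Stx3 (140.4 ± 1.7), Cacna2d4 (53.2 ± 6.18), Egflam (47.5 ± 2.91), Cacna1f (39.6 ± 4.21), Cabp4 (38.9 ± 4.03), Ctbp2 (31.2 ± 3.15), Pclo (9.12 ± 1.06) and Bsn (6.37 ± 0.326). Neighbours in this order did not overlap in the P30 mice, except Cacna2d4 with Egflam and Cacna1f with Cabp4. Unc119 was above Slc17a7, and Pclo above Bsn, in all 12 mice.

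Set beside their relatives, 6 of the 8 genes with relatives outside the 10 held most of their family's RNA on the CPM per kb scale in every mouse. Unc119 made up 98.5 to 99.3% of the sum with Unc119b, and Slc17a7 91.3 to 93.7% of the sum with the other vesicular glutamate transporters, Slc17a6 and Slc17a8. Egflam held 79.8 to 92.5% of the sum with Agrn, Cacna1f 72.8 to 83.3% of the L-type pores, Stx3 63.3 to 73.7% of the syntaxins listed and Cacna2d4 57.3 to 74.3% of the alpha2delta subunits. Cabp4 was different, with 27.7 to 35% of its family, and lay below Cabp5, which bipolar cells use (0.667 of its level in the P30 mice on average). Ctbp2 took 34.4 to 57.1% of the sum with Ctbp1, a corepressor made in many cells. Other retinal cells also use several of these genes, so the shares are of whole retina and not of PRs.

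**Figure D5:**
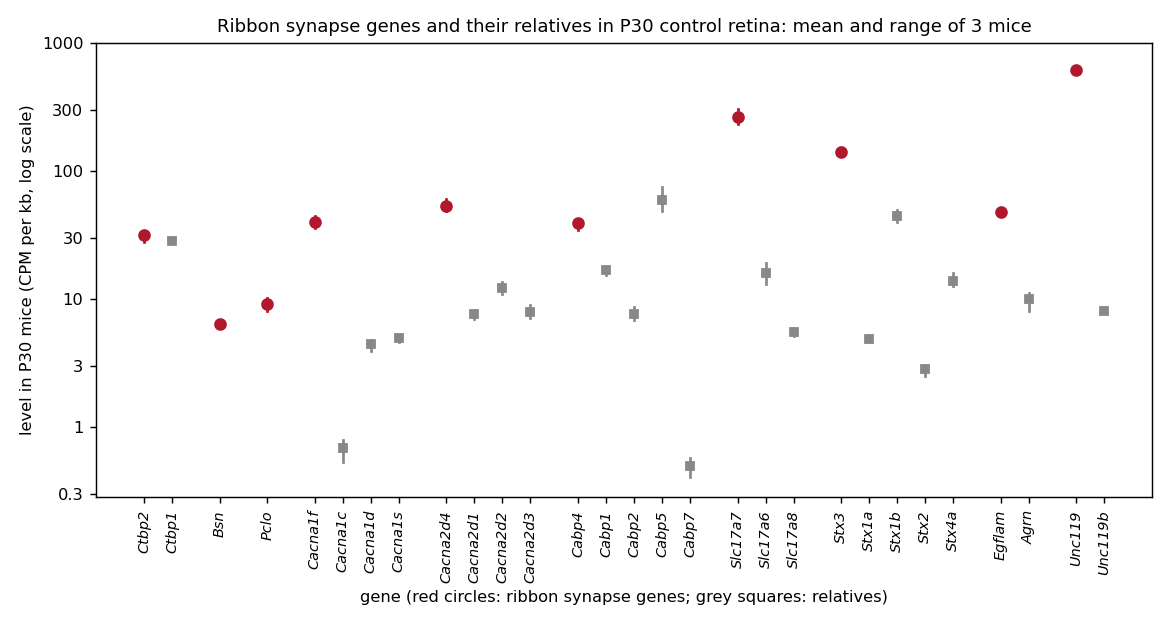
Level in CPM per kb of merged exon (log axis) of the ribbon synapse genes (red circles) and of their relatives (grey squares) in P30 retina, as mean and range of 3 mice. Unc119, Slc17a7, Cacna1f, Egflam, Cacna2d4 and Stx3 stand above their relatives, while Cabp5 lies above Cabp4 and Ctbp1 lies close to Ctbp2.

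Among genes whose proteins work with these, none passed either. Of 27 presynaptic partners, such as Rims, ERC, complexin and synaptic vesicle genes, 0 passed the test at P32, P34 or P38, with median log2 fold changes of -0.13, 0.17 and 0.12. The highest and lowest at P34 were Rims1, an active zone organizer (0.49 ± 0.21, adjusted p = 0.446), and Mpp4, a scaffold of PR terminals (-0.22 ± 0.13, adjusted p = 0.587), both from edgeR's quasi-likelihood fit. Of 12 partners on the bipolar dendrite, 0 passed, with medians of -0.03, 0.05 and 0.02. Lrit3 was highest at P34 (0.34 ± 0.46) and Rgs11, which speeds the recovery of the mGluR6 pathway, lowest (-0.31 ± 0.22). Of 19 family members, 0 passed, with Slc17a6 highest at P34 (0.55 ± 0.17, edgeR's quasi-likelihood adjusted p = 0.273) and Stx2 lowest (-0.20 ± 0.14). Crx measured 1140 to 1192 CPM at P30 and 1060 to 1457 CPM in the cKO mice, with log2 fold changes of -0.01, 0.07 and 0.11.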

How the data were processed

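Libraries were made with a stranded poly(A) kit (1 library per mouse). Per the submitters' processing notes, the authors used bcl2fastq 2.17.1.14, STAR 2.5.3a and HTSeq 0.6.1p1 on mm10, and deposited raw counts per gene and mouse. Strand use in counting is not given in the sources used here (Tsix, opposite Xist, had 2 to 10 counts per mouse). Reads with several positions, 23.7 to 32.2% of reads, were not counted. Gene names and GRCm38 positions came from GENCODE M21 (99.9% of genes named), promoters from RefSeq.

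In R 4.3.3, edgeR 4.0.16 filtered low counts by group, scaled by TMM and fitted 12 mice with 1 mean per age (for all cKO mice against P30, 2 means). The Benjamini-Hochberg adjustment ran over 18628 genes. SE is the log2 fold change divided by the root of F. At these depths 3 counts equal 0.0499 to 0.101 CPM. Alternatives: DESeq2 1.42.0, its size factors, library totals, 2 filters, a robust fit, pairwise fits, 2 thresholds, length slope or sex as covariate, and each mouse left out. The procedure was tested on simulated counts.

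The genes and gene lists were chosen with earlier results of these data known. Named beyond the 10 genes are, per partner list, those past the threshold against P30 and the highest and lowest at P34, relatives, the 5 genes most alike, Otx2 and Crx. Genes overlapping the 10, the RPE markers named and the values singled out by mouse were named after their values were seen. Otx2 reads by exon were not analysed here.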

Additional observations from a re-analysis of the deposited data

Results flagged for a closer look

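Among the 9 cKO mice, Ctbp2 was lowest in P32 mouse 4, at 115 CPM, and the gap to the next mouse was 0.535 of the whole range, above Dixon's critical value. By chance about 1 in 20 such groups would be singled out if the 9 mice were 1 uniform sample. They came from different ages, so that rate may not hold, and 10 genes were looked at on both sides. Cacna2d4 in the same mouse came close, at 0.486. Ages with 3 mice were not tested in this way.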

How the results depend on the processing

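No paired analysis was possible because the replicate numbers run from 1 to 12 over the mice and no number is shared between ages. Against P30, 0 of the 10 genes passed at P32, P34 or P38, and with all cKO mice together, under every alternative run that kept the adjusted p or the limit on the fold, as from P34 to P38. Egflam at P38 had an unadjusted p of 0.0468 and a fold within that limit. The other counts moved from 0. With an unadjusted p and the same limit on the fold they were 2 from P32 to P34 and 4 from P32 to P38, beside 5.49% and 5.68% of all genes as higher, and 4 over any age, where no limit on the fold applies, beside 17.2%, and with DESeq2 they were 1, 2 and 1. Leaving out each mouse gave 0 to 3 from P32 to P34 and 0 to 4 from P32 to P38, the highest without P32 mouse 6. The cause was not tested.

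Some log2 fold changes that had not passed the test changed sign. With library totals only, Cabp4 and Unc119 at P34 were -0.051 and -0.0090, Cacna1f and Unc119 at P38 -0.018 and -0.016, and Cacna1f from P32 to P38 -0.051. With at least 1 CPM in 3 mice, Cacna1f at P32 was -0.00145 and Cabp4 at P34 -0.012. With only the ages compared, Cabp4 was -0.0071 at P34 and 0.015 from P32 to P38. With the length slope, Bsn, Pclo and Unc119 at P32 were 0.0088, 0.0058 and -0.032 in place of -0.22, -0.30 and 0.27, Cacna2d4 at P34 -0.0097 and Cacna1f at P38 -0.031. It also gave Unc119 0.26 in place of -0.22 from P32 to P34 and, from P32 to P38, Cacna1f -0.20, Cabp4 0.12 and Unc119 0.25. With sex, Cacna1f at P34 was 0.0087, Cabp4 at P34 -0.016, and Unc119 -0.20 at P34 and -0.15 at P38. The P30 mice are all female, so sex rests on the cKO mice.

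Leaving out each mouse, Cacna1f ran from -0.068 to 0.11 at P32, -0.27 to 0.041 at P34, -0.0084 to 0.14 at P38, -0.27 to 0.043 from P32 to P34 and -0.046 to 0.13 from P32 to P38. Cabp4 ran from -0.085 to 0.058 at P34 and -0.090 to 0.087 from P32 to P38. Unc119 ran from -0.070 to 0.13 at P34, -0.084 to 0.20 at P38, -0.35 to 0.024 from P32 to P34 and -0.37 to 0.056 from P32 to P38. Alternatives for P34 and P38 against P32 by gene were chosen after seeing the data. With 3 mice per age, a change of 1 or less on the log2 scale may pass uncalled, and in the simulation some changes of 2 did too.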
